A study of Mus musculus with 2 samples.

Results

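The 10 genes described here belong to the bone morphogenetic protein (BMP) pathway and were read in 10 annotated cell types of the jejunal crypt, in each of 2 single-cell libraries. They are the receptors Bmpr1a and Bmpr2, the decoy receptor Bambi, the signal transducers Smad1, Smad5 and Smad4, the inhibitory Smad6, and the target genes Id1, Id2 and Id3. They were chosen by name and not by a rule on their levels, but with earlier results of these data known. They are 10 of the 27998 genes in the matrices. All 10 were among the 11013 genes that passed the filter on low counts. The libraries, replicate 1 and replicate 2, come from jejunal crypts of 2 male mice of 12 months with a CRISPR-made whole-body knockout of miR-375 (375KO). The strain is given as C57BL6/2J in the labels and as B6 albino in the protocol. Every cell carries the knockout, and no wild-type cells were used, so all comparisons below are between cell types and none is between genotypes. Each mouse gave 1 library. The p-values below rest on how far the differences between cell types varied between these 2 mice, since the fit removes the average difference between the mice.

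BMP ligands bind a complex of type I receptors (such as Bmpr1a) and type II receptors (such as Bmpr2), which phosphorylates Smad1 and Smad5. These enter the nucleus with the shared partner Smad4 and switch on targets, among them the Id genes. Id proteins bind E proteins, a class of transcription factors, and keep them off DNA, while Smad6 and Bambi act as feedback inhibitors. In the intestine BMP activity is known to be low around the stem cells at the crypt base and to rise towards the villus, where it restrains the stem cell programme.

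The annotated types are stem cells, transit-amplifying (TA) cells, enterocytes, secretory progenitors, goblet progenitors, goblet cells, Paneth cells, enteroendocrine cells (EEC), tuft cells and intraepithelial lymphocytes (IEL). The libraries hold 2082 and 1193 annotated cells with 44017234 and 22163354 UMIs (unique molecular identifiers, tags that count captured RNA molecules), and no barcode is shared between them. UMIs were summed per type and mouse. The sums range from 19 secretory progenitors of replicate 2 (and 18 IEL) to 931 enterocytes of replicate 1. Of 51 markers listed for these types, 45 were highest in their own type in both libraries. The weakest lists were those of TA cells, with 3 of 6, and secretory progenitors, with 1 of 3, whose list summed to 371 and 379 UMIs per 1000000 UMIs of a sum (CPM) there and to 539 and 470.3 in goblet cells. Markers of mesenchyme summed to at most 6.52 CPM in the epithelial sums, and 5 of the 8 listed, Col1a2, Col3a1, Dcn, Lum and Pdgfra, had 0 UMIs. The IEL sums are mixed. Macrophage markers summed to 1843 CPM in replicate 1 and 57.7 in replicate 2, and B cell markers to 3.81 and 4862. The EEC sum of replicate 2 held IEL markers at 1263 CPM, against 3.22 in replicate 1. The authors named the types from the same cells' expression, so a difference between types is a description of their clusters as much as a test.

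Levels are given as scaled CPM, that is CPM after TMM scaling, which corrects a sum for a few genes that take most of its molecules. This matters for Paneth cells, where 10 genes took 82.6% and 81.9% of all UMIs in the replicates, and where the factors were 0.156 and 0.121 against 0.952 to 1.59 in the other epithelial sums. Paneth levels are therefore given with their UMIs. Unscaled, Bambi stood at 170 and 181 CPM in Paneth cells and the other 9 genes between 0.229 and 6.54. The kit reads 3′ ends, so levels of different genes are not compared with each other.

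Over the 9 epithelial types, 7 of the 10 genes varied by the quasi-likelihood F test of edgeR at an adjusted p under 0.05: Bambi, Smad4, Smad5, Smad6, Id1, Id2 and Id3. Of all genes tested, 77.3% did, so this count is near the background. The receptors Bmpr1a and Bmpr2 and the transducer Smad1 did not pass, with adjusted p = 0.111, 0.380 and 0.850. Without the Paneth sums 5 genes passed, against 77.3% of all genes. The genes lost were Smad5 and Id1, with adjusted p = 0.0682 and 0.0606. The dot plots of levels show narrow spreads for Bmpr1a and Smad1 and a wide one for Bambi, while the spread of Bmpr2, from 3.29 to 35.8 in the epithelial sums, lay mostly between the mice.

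**Figure D1:**
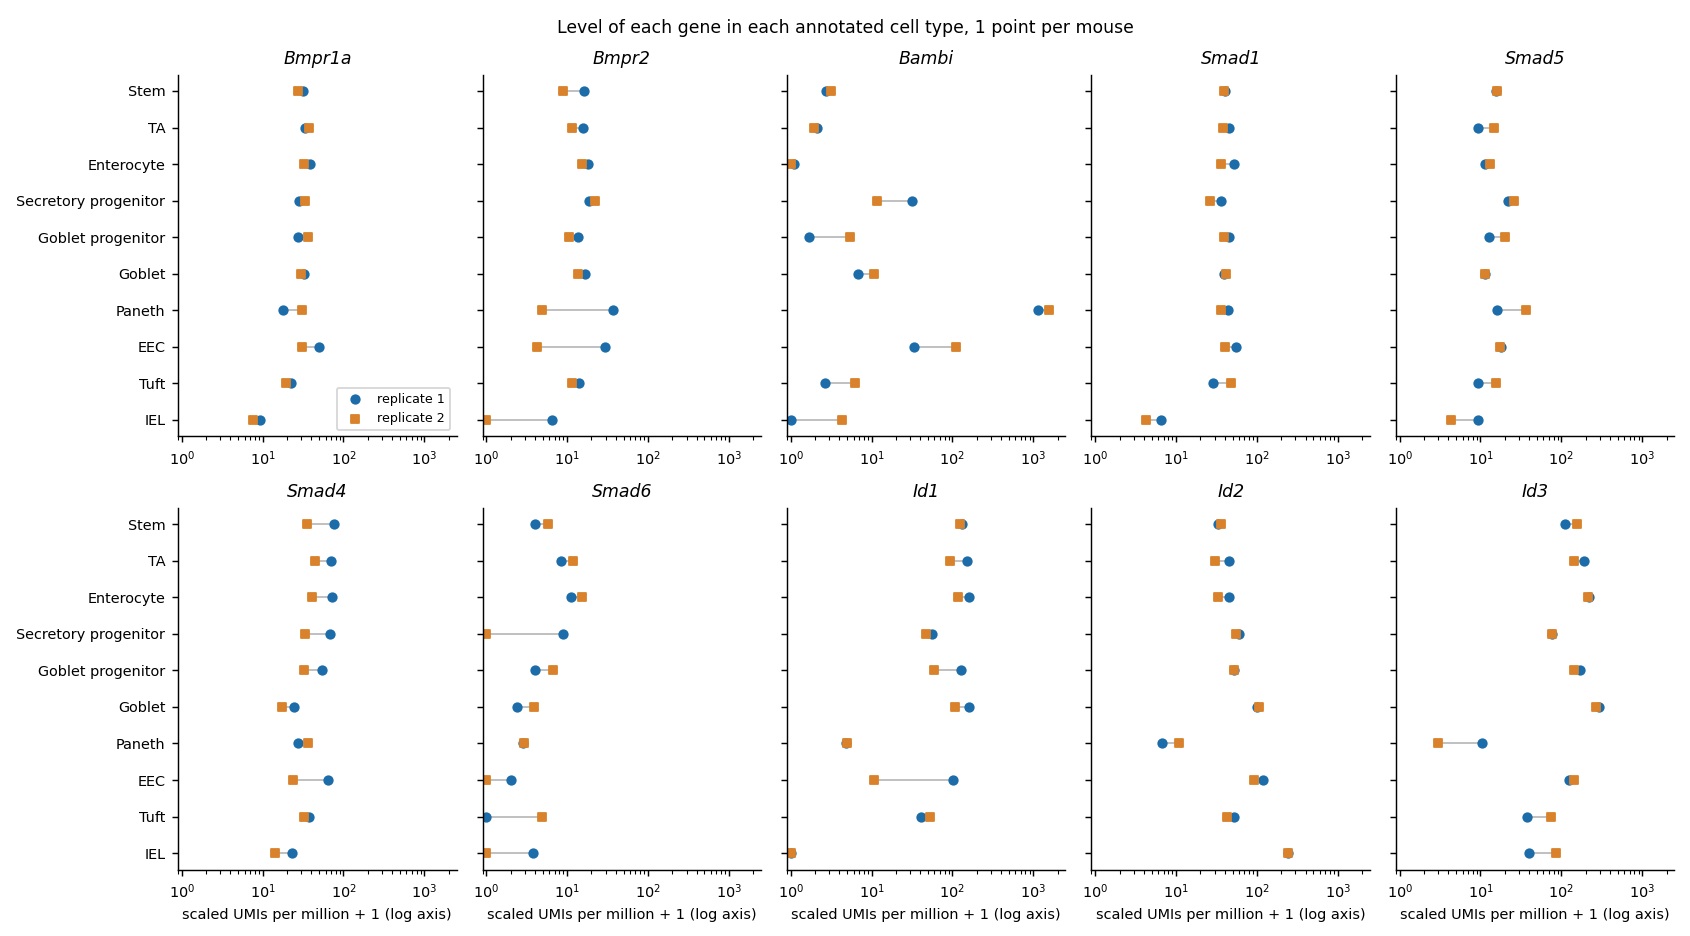
Level of each of the 10 genes in each annotated cell type, as scaled CPM plus 1 on a log axis, with 1 point for each mouse and a grey line joining the 2. Bambi runs from 0 in enterocytes of replicate 2 to 1543 in Paneth cells of replicate 2, while Smad1 stays between 24.9 and 53.5 in all 18 epithelial sums.

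The upstream sequence is shown for 3 genes, to set their promoters side by side. Among the genes whose promoter windows were used, the levels of these 3 varied most clearly between epithelial types. RefSeq promoter windows (GRCm38.p6, 250 bases before to 50 after the start) were given for 7 of the 10 genes and hold 9 windows. The windows of Id1, Smad4 and Bambi were not used here. In capitals are the motifs searched on both strands: GGCGCC, a GC-rich element to which Smad1 and Smad5 are known to bind, and GTCTAGAC, the palindromic Smad element.
Smad6 (chr9:64022010-64022309, minus strand): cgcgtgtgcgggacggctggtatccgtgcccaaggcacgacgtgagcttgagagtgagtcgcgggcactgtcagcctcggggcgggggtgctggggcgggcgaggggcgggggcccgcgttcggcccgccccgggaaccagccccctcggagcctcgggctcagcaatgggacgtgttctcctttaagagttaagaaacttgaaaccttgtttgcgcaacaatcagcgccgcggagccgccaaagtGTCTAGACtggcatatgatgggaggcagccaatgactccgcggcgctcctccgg
Id2 (chr12:25096043-25096342, minus strand): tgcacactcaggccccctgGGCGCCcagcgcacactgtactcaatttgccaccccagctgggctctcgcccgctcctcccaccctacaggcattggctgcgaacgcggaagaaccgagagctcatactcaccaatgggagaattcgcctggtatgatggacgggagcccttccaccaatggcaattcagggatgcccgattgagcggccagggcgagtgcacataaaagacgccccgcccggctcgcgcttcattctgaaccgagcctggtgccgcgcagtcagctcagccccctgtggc
Id3 (chr4:136143572-136143871, plus strand): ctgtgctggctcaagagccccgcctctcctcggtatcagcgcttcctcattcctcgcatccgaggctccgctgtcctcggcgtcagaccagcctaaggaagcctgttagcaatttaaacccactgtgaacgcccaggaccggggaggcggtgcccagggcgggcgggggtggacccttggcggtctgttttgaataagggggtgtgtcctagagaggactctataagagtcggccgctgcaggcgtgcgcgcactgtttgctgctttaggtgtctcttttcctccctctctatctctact
The Smad6 window holds GTCTAGAC, beginning 4 bases before the start, a motif found in 0.213% of 32851 mouse promoter windows. GGCGCC is in the Id2 window, 231 bases before the start, and also in windows of Bmpr1a, Bmpr2 and Smad5. It is found in 11.9% of all windows. The Id3 and Smad1 windows hold neither. TGACGTCA, the cAMP response element found in 1.79% of windows, and GCGGGGGCG, an Egr element found in 2.91%, were in none of the 9. The windows of the 7 genes are 59.3% to 79.3% G and C, against a median of 52.7% over all windows, and GC-rich windows hold GC-rich motifs more often. A match is a run of letters and no measurement of binding.

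Bmpr1a (chr14:34410734-34503341, minus strand), the type I receptor, varied little. In the 8 epithelial types other than Paneth cells its level ran from 18.3 in tuft cells of replicate 2 to 49.3 in EEC of replicate 1, with a median of 30.9. Paneth cells held 17.0 and 29.3 in the replicates after scaling, from 9 and 15 UMIs. Neighbours in the order from EEC to tuft cells overlapped between mice throughout, and no epithelial type differed from the rest at an adjusted p under 0.05. Enterocytes exceeded stem cells by 0.28 on the log2 scale, which did not pass (adjusted p = 0.298), and the approximate 95% interval of -0.15 to 0.71 leaves room for a rise of over 1.5-fold.

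Bmpr2 (chr1:59763400-59879014, plus strand), the type II receptor, was read from fewer molecules, 987 UMIs in all. In stem cells it was at 15.3 and 8.01 scaled CPM, in TA cells at 14.7 and 10.5, and in enterocytes at 17.3 and 14.4. Replicate 1 was higher in 8 of the 9 epithelial types. The gap was widest in EEC (27 UMIs against 1) and Paneth cells (19 against 2). Enterocytes and stem cells differed by 0.42 with an interval of -0.21 to 1.05 and adjusted p = 0.287. Bmpr2 was also the only gene of the 10 whose longest annotated 3′ untranslated region (8529 bases, GENCODE M21) holds letters complementary to the seed of miR-375, as read from its RefSeq hairpin, the miRNA that these mice lack. Both matches are of the 7-base kind GAACAAA, in the last of 13 exons, and are shown in capitals. This region is also the longest of the 10, and the share of all genes with such a match was not computed. A match of letters is no measurement of regulation by the miRNA.
Bmpr2 (chr1:59871271-59871277): agagcataGAACAAAacagaaga
Bmpr2 (chr1:59874866-59874872): gagctactGAACAAAggctatta
With no wild-type cells here, the effect of the knockout on Bmpr2 was not tested.

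Bambi, a transmembrane protein that resembles a type I receptor but lacks the kinase and so damps BMP and TGF-beta signals, had the steepest profile. It stood at 1129 and 1543 scaled CPM in Paneth cells, from 599 and 791 UMIs, or 170 and 181 CPM before scaling. EEC held 32.5 and 108, secretory progenitors 30.5 and 10.7, and goblet cells 5.78 and 9.73. Tuft cells held 1.65 and 5.22, goblet progenitors 0.66 and 4.34, stem cells 1.75 and 2.14, TA cells 1.11 and 0.954, and enterocytes 0.11 and 0. Paneth cells were above every other type in both mice on either scale, with EEC of replicate 2 nearest on the unscaled one, at 153. The 4 highest types did not overlap with the next in order.

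Against the mean of the other 8 epithelial types, Bambi was higher in Paneth cells by 8.60 on the log2 scale (SE 0.20, edgeR adjusted p = 5.69e-15) and, with library totals alone, by 5.39. It was higher in EEC by 3.54 (SE 0.41, adjusted p = 8.58e-06) and in secretory progenitors by 2.20 (SE 0.58, adjusted p = 0.0397). The last value rests on replicate 1, with 19 UMIs against 3, and was 2.50 in replicate 1 and 0.02 in replicate 2. Enterocytes were lower by 6.42 (SE 0.69, adjusted p = 7.56e-07) and TA cells by 2.90 (SE 0.60, adjusted p = 0.00159), a TA call that ended after thinning to 5000 UMIs a cell, at -2.82. Only 2 UMIs were seen in the 931 and 382 enterocytes of the replicates, against 8 in the 139 and 117 stem cells, a ratio of 29.2 per UMI sequenced with a counting interval of 5.82 to 282.

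Free RNA can reach other droplets, so Bambi was set against Lyz1 and Defa24, a pair of Paneth granule genes. Paneth cells themselves held 0.379 and 0.500 Bambi UMIs per 1000 UMIs of this pair. EEC held 86.1 and 8250, since their 31 and 33 Bambi UMIs came with only 360 and 4 of the pair. Secretory progenitors held 216 and 375. Goblet cells held 1.34 and 1.92, and at the Paneth ratio their 15666 and 10428 UMIs of the pair would bring 5.94 and 5.21 of the 21 and 20 Bambi UMIs seen. Bambi in EEC was spread over 16 of 54 and 10 of 20 cells, with at most 5 and 8 UMIs in a cell. In replicate 2, TA cells and enterocytes held 0 UMIs of the pair, beside 1582166 in Paneth cells. The 6 listed Paneth markers together still reached 116 CPM in EEC and 23.1 in TA cells of that mouse. The pair is thus no gauge of free RNA there, and the share of free RNA in the Bambi of EEC was not tested.

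**Figure D2:**
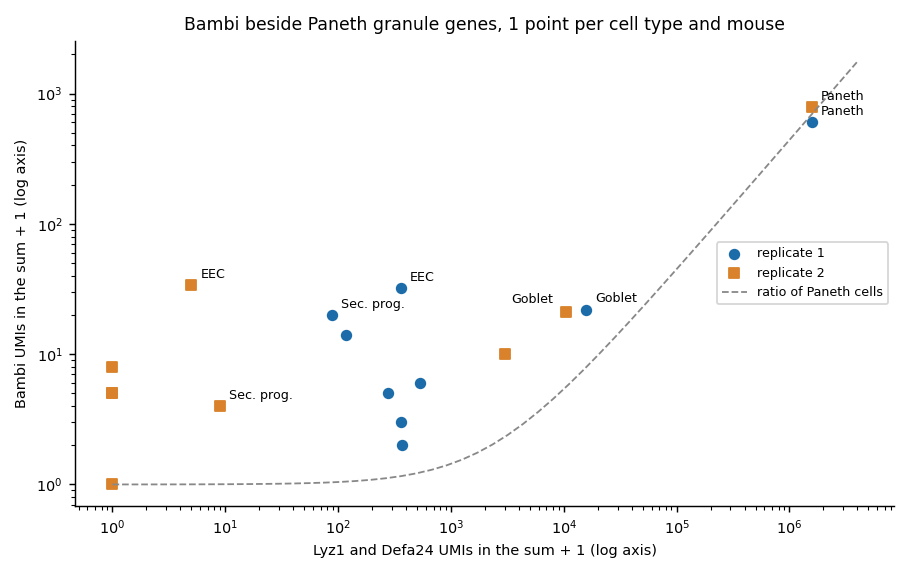
Bambi UMIs plus 1 against Lyz1 and Defa24 UMIs plus 1 in each epithelial sum, both on log axes, with 1 point per cell type and mouse. The dashed line is the ratio of the Paneth sums, and the EEC points lie far above it, at 31 and 33 Bambi UMIs beside 360 and 4 UMIs of the granule genes. In replicate 2, TA cells and enterocytes held 0 UMIs of these genes, so distance from the line is no measure of free RNA there.

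Smad1 (chr8:79338395-79399518, minus strand) and Smad5 (chr13:56703010-56742377, plus strand) carry the BMP signal. Smad1 was at 39.0 and 38.5 scaled CPM in stem cells, 43.6 and 37.3 in TA cells, and 50.5 and 35.5 in enterocytes. Its highest and lowest epithelial type means were 1.54-fold apart, and no epithelial type stood apart by the test. Enterocytes and stem cells differed by 0.15 with an interval of -0.25 to 0.55 and adjusted p = 0.559. Smad5 was highest, after scaling, in Paneth cells at 15.1 and 35.1 (8 and 18 UMIs) and in secretory progenitors at 20.9 and 24.9, and was 8.20 and 13.9 in TA cells. TA cells were lower than the mean of the other types by 0.52 (SE 0.19, adjusted p = 0.0333). This call ended without the Paneth sums (adjusted p = 0.0935) and the difference was 0.01 with library totals alone.

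Smad4, the partner that carries Smad1 and Smad5 to DNA, was, after scaling, lowest among epithelial types in goblet cells. It stood there at 23.4 and 16.5 scaled CPM, against 53.5 and 31.4 in goblet progenitors, 74.4 and 34.7 in stem cells, 69.9 and 43.1 in TA cells, and 70.9 and 40.1 in enterocytes. Paneth cells held 26.4 and 35.1 from 14 and 18 UMIs, which is 3.98 and 4.12 CPM before scaling and then below the 22.5 and 15.2 of goblet cells. Within each mouse the scaled goblet value was the lowest of the 9 types, although across mice EEC of replicate 2 (23.0) overlapped with goblet cells of replicate 1. Goblet cells fell by 1.19 below the mean of the other types (SE 0.20, adjusted p = 1.6e-05), and the value without the Paneth sums was -1.22. TA cells rose above it by 0.50 (SE 0.15, adjusted p = 0.00787) and enterocytes by 0.46 (SE 0.15, adjusted p = 0.00845). Replicate 1 was higher in 8 of 9 types, by up to 3.02-fold in EEC.

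Smad6 (chr9:63953076-64022059, minus strand), an inhibitory Smad that BMP signals themselves induce, was highest in enterocytes and TA cells. Enterocytes held 10.1 and 14.4 scaled CPM from 190 and 80 UMIs, and TA cells 7.35 and 10.9 from 86 and 80. Stem cells held 3.06 and 4.81, goblet progenitors 3.05 and 5.79, goblet cells 1.38 and 2.92, and Paneth cells 1.88 and 1.95. Secretory progenitors were split, at 8.02 and 0, and tuft cells held 0 and 3.92. Enterocytes lay above all of these in both mice, and so did TA cells except for secretory progenitors of replicate 1. A single UMI was seen in EEC, in replicate 1. Enterocytes exceeded the mean of the other types by 2.02 (SE 0.28, adjusted p = 2.71e-07) and TA cells by 1.54 (SE 0.30, adjusted p = 0.000151). Both differences kept their size without the Paneth sums, at 1.88 and 1.44.

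Id1 (chr2:152736251-152737410, plus strand), a dominant-negative partner of E proteins, was level across most of the absorptive lineage. It stood at 131 and 122 scaled CPM in stem cells, 152 and 91.4 in TA cells, 158 and 115 in enterocytes and 159 and 107 in goblet cells. Goblet progenitors held 127 and 57.4, secretory progenitors 54.5 and 46.3, and tuft cells 39.5 and 52.2. EEC were split between the mice, with 101 in replicate 1 (96 UMIs) and 9.86 in replicate 2 (3 UMIs). Paneth cells held 3.77 and 3.90, from 2 UMIs in each mouse, and lay below every other epithelial sum.

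Id2 (chr12:25093799-25097140, minus strand), of the same family, had another order. IEL held 239 and 241 scaled CPM, EEC 116 and 92.0, and goblet cells 99.4 and 105. Secretory progenitors held 59.3 and 53.5, goblet progenitors 51.1 and 51.6, and tuft cells 51.0 and 41.8. Enterocytes, TA cells and stem cells followed at 44.2 and 32.2, 43.7 and 29.0, and 32.0 and 34.7. EEC, tuft cells, enterocytes and TA cells each overlapped with the next in order. Paneth cells held 5.65 and 9.76, from 3 and 5 UMIs. EEC and goblet cells lay above the remaining epithelial types in both mice. The IEL markers in EEC of replicate 2 stand beside its 92.0, and replicate 1, with those markers at 3.22 CPM, held 116.

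Id3 (chr4:136143497-136145755, plus strand) was highest in goblet cells, at 290.1 and 268, and in enterocytes, at 219 and 215. TA cells held 192 and 142, goblet progenitors 169 and 141, EEC 125 and 141, and stem cells 111 and 155. Secretory progenitors were lower at 75.4 and 74.8, tuft cells at 36.2 and 73.1, and Paneth cells at 9.42 and 1.95, from 5 UMIs and 1. After scaling, goblet cells and then enterocytes stood clear of the next type in both mice, whereas TA cells, goblet progenitors, EEC and stem cells could not be placed in order. Before scaling this order was lost. The mean was then 262 CPM in goblet cells (SD 23.2 between mice), 224 in TA cells (SD 59.8) and 218 in enterocytes.

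All 3 Id genes were far lower in Paneth cells than in any other epithelial type. Together they gave 10 and 8 UMIs there, out of 3515066 and 4363692. Against the mean of the other types Id1 fell by 4.53 (SE 0.74, edgeR adjusted p = 0.000552), Id2 by 2.79 (SE 0.38, adjusted p = 5.7e-07) and Id3 by 4.55 (SE 0.40, adjusted p = 6.63e-10). With library totals alone the differences were -7.65, -5.97 and -7.72, so the scaling sets their size and not their direction. That scaling choice moved the median of all genes in this comparison from -0.04 to -3.20, and with it the other 6 genes, Bmpr1a, Bmpr2, Smad1, Smad5, Smad4 and Smad6, went from no call to values between -2.40 and -4.06. Bambi was higher in Paneth cells on both scales. In all 4 of 10 genes were called in Paneth cells after scaling, against 27.0% of all genes.

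**Figure D3:**
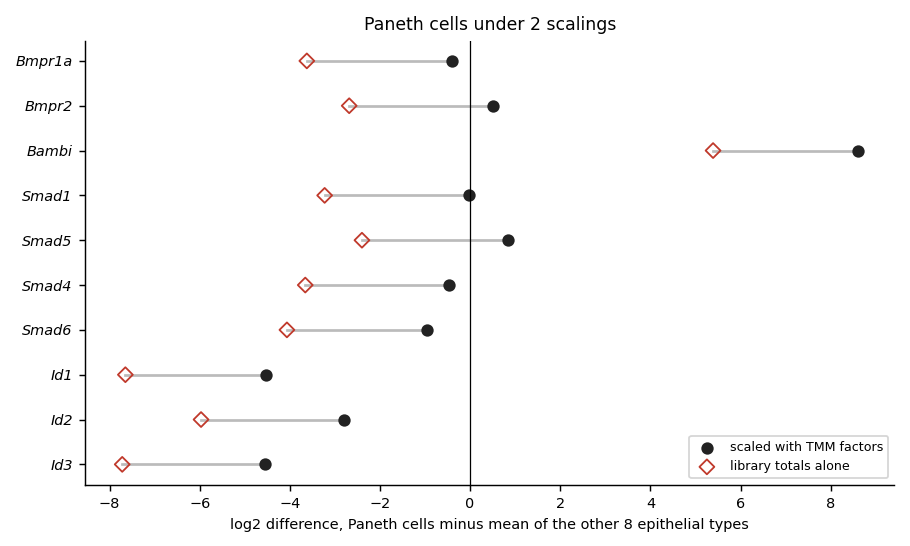
Log2 difference for the 10 genes in Paneth cells, measured from the average of the remaining 8 epithelial types, scaled with TMM factors (filled points) and with library totals alone (open diamonds). Library totals shift every gene to the left by about the same step, and the Id genes lie at -2.79 or below while Bambi lies at 5.39 or above on either scale.

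Because Paneth cells hold almost no Id transcripts, they pull down the mean with which every other type is compared. In goblet cells 4 of 10 genes were called, against 29.2% of all genes: Id1, Id2 and Id3 higher and Smad4 lower. Id3 was higher by 1.74 (SE 0.15, adjusted p = 3.53e-10) and Id2 by 1.396 (SE 0.14, adjusted p = 2.63e-09), and both calls held without the Paneth sums, at 1.24 and 1.12. Id1 was higher by 1.22 (adjusted p = 0.00417) and by 0.71 without the Paneth sums (adjusted p = 0.0814). Bambi in goblet cells turned from 0.20 to 1.35 once the Paneth sums were out (adjusted p = 0.0144).

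In enterocytes 5 of 10 genes were called, against 54.5% of all genes: Smad4, Smad6, Id1 and Id3 higher, Bambi lower. The Smad4 call ended under the stricter cell filter. Id3 was higher by 1.32 (SE 0.15, adjusted p = 2.23e-08) and by 0.72 without the Paneth sums (adjusted p = 6.96e-05). Id1 went from 1.27 (adjusted p = 0.000987) to 0.66 (adjusted p = 0.0602). Id2 was not called at -0.19 and, without the Paneth sums, was lower by 0.60 (adjusted p = 0.000533).

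In TA cells 6 of 10 genes were called, against 32.8% of all genes: Id1, Id3, Smad4 and Smad6 higher, Smad5 and Bambi lower. In stem cells 2 were called, Id1 and Id3, against 25.6%. None of the Id calls in these proliferating types held without the Paneth sums. Id1 then stood at 0.50 in TA cells and 0.63 in stem cells (adjusted p = 0.204 and 0.156), and Id3 at 0.35 and -0.02 (adjusted p = 0.0617 and 0.989). In their place Id2 was lower, by 0.63 in TA cells and 0.76 in stem cells (adjusted p = 0.000845 and 0.00119).

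In EEC 2 genes were called, Bambi and Id2 higher, against 21.6% of all genes. Id2 was higher there by 1.47 (SE 0.19, adjusted p = 4.41e-07) and by 1.08 without the Paneth sums. In goblet progenitors 2 were called, Id3 higher and Bambi lower, against 12.1%. Neither held without the Paneth sums (adjusted p = 0.303 and 0.294). In secretory progenitors Bambi was the only call, against 4.78%, and in tuft cells Id3 was the only call, lower by 0.87 (SE 0.24, adjusted p = 0.0112), against 16.0%. The tuft call ended with library totals alone, at -0.26 (adjusted p = 0.464). Without the Paneth sums Id3 was lower by 1.48 in tuft cells and by 0.96 in secretory progenitors (adjusted p = 9.09e-06 and 0.00868).

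Along the absorptive lineage, enterocytes were compared with the stem cells from which they arise. Of the 10 genes 3 were called, against 51.3% of all genes. Smad6 rose by 1.64 (SE 0.41, adjusted p = 0.00114), from 3.92 and 5.61 to 9.81 and 14.96 CPM before scaling. Id3 rose by 0.70 (SE 0.20, adjusted p = 0.00484), by 1.02 in replicate 1 and 0.49 in replicate 2, and by 0.43 with library totals alone (adjusted p = 0.101), a scaling that moved the median of all genes to -0.22. Bambi fell by 3.94 (SE 1.25, adjusted p = 0.0154). Id1 and Id2 differed by 0.08 and 0.20 (adjusted p = 0.859 and 0.447, intervals -0.54 to 0.70 and -0.21 to 0.61).

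Stem cells and TA cells, which follow each other in the crypt, differed in 0 of the 10 genes by edgeR and by DESeq2, against 4.83% of all genes, and 1 gene was under an unadjusted 0.05. That gene was Smad6, lower in stem cells by 1.21 (SE 0.42, adjusted p = 0.0979) and lower in both mice, by 1.19 and 1.09. For the other Smads, the receptors and the Id genes the intervals reach at most 0.997 in size on the log2 scale, and for Bambi 2.57.

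Along the goblet lineage, goblet cells were compared with goblet progenitors. There 4 of 10 genes were called, against 29.1% of all genes, each in the same direction in both mice. Id2 rose by 0.998 (SE 0.19, adjusted p = 0.000147), Id3 by 0.84 (SE 0.20, adjusted p = 0.00204) and Bambi by 2.14 (SE 0.63, adjusted p = 0.0177), while Smad4 fell by 1.10 (SE 0.24, adjusted p = 0.000583). After thinning the Bambi difference was 0.84 and no longer called (adjusted p = 0.626). Id1 was 0.55 higher, which did not pass (adjusted p = 0.245). With library totals alone the median of all genes was -0.49 and Id3 was 0.34 higher (adjusted p = 0.205). Immediate early genes, which respond to tissue dissociation, summed to 3719 and 2445 CPM in goblet cells and to 1390 and 1065 in goblet progenitors. They stood at 3332 and 3017 in EEC, 1309 and 857 in enterocytes, 523 and 643 in stem cells, and 240.4 and 402 in Paneth cells. These sums are high where Id2 and Id3 are high in goblet cells and low in Paneth cells. Other types did not follow for Id3. The sums were 962 and 1018 in tuft cells and 790 and 754 in secretory progenitors, above stem cells. Both types held more Id2 but less Id3 than stem cells in each mouse. The part of immediate early genes in the Id differences was not tested.

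**Figure D4:**
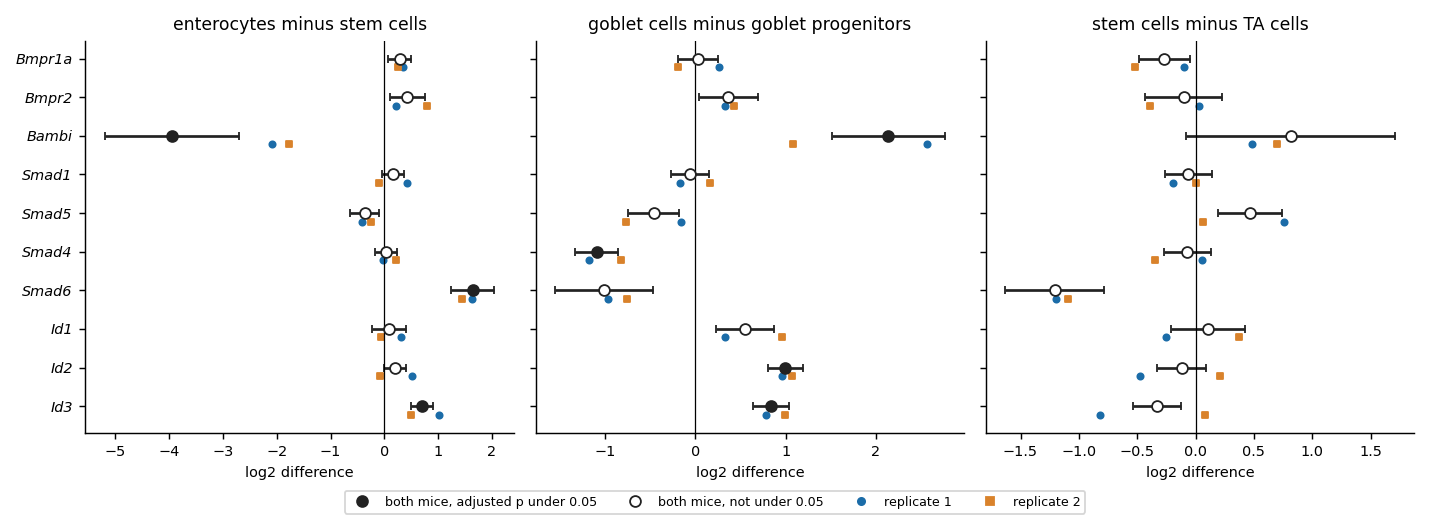
Log2 difference for the 10 genes in 3 comparisons along the lineages, with SE bars for the fit over both mice and small coloured points for each mouse (prior count 2). Filled circles passed at an adjusted p under 0.05: Bambi, Smad6 and Id3 on the left, Bambi, Smad4, Id2 and Id3 in the middle, and no gene on the right.

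The share of cells with a UMI was compared after each cell was thinned to 5000 UMIs, since depth differs widely between types. Id3 was then seen in 58.3% of 930 and 60.5% of 382 enterocytes (exact intervals 55.0 to 61.5 and 55.4 to 65.4), against 43.4% of 136 and 51.3% of 117 stem cells. The shares before thinning were 88.9% and 84.0% of enterocytes and 61.2% and 71.8% of stem cells. Tuft cells had Id3 in 15.4% and 23.7% of thinned cells. Paneth cells had it in 2 of 78 and 0 of 54 (intervals up to 8.96% and 6.603%), and before thinning in 6.41% and 1.85%, at a median depth of 44684 and 80820 UMIs against 16975 and 13405 in enterocytes. Thinned Paneth shares are low for other genes too, since granule genes fill most of the 5000 UMIs. Smad1, at a like scaled level in both types, was seen in 3.85% and 3.70% of thinned Paneth cells and in 21.7% and 16.5% of enterocytes, so these shares are no measure of the background. Bambi was seen in 51.3% and 51.9% of thinned Paneth cells and in 0 of 930 and 0 of 382 thinned enterocytes. These intervals cover counting error only.

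**Figure D5:**
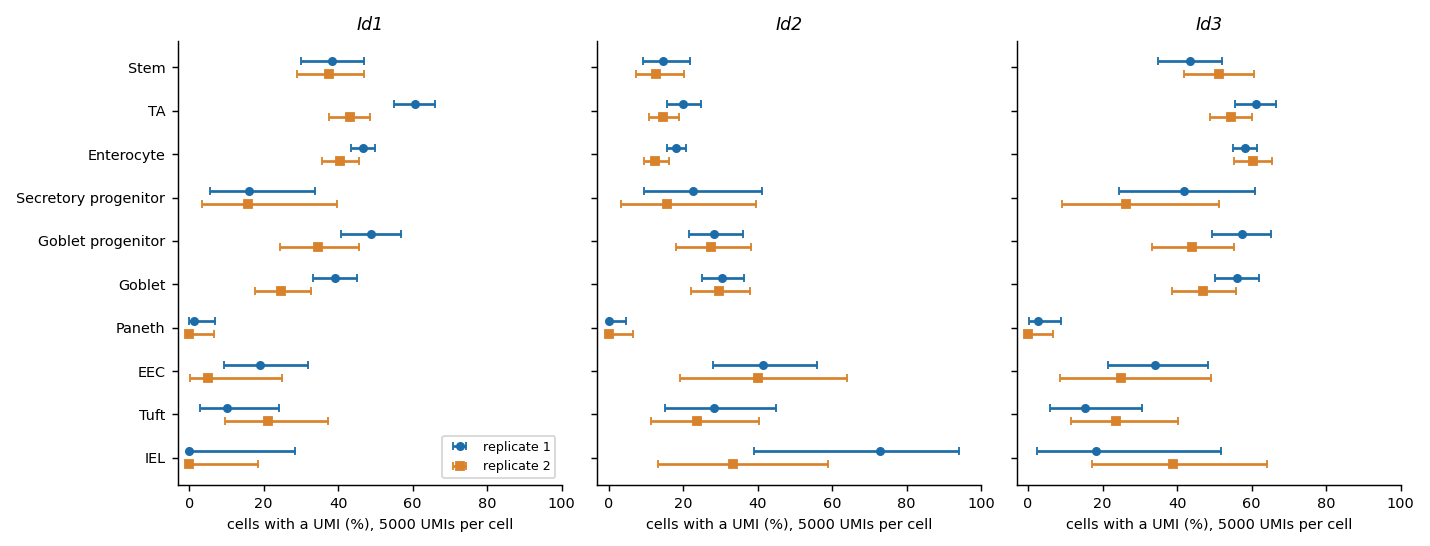
Share of cells with at least 1 UMI of Id1, Id2 or Id3 after thinning to 5000 UMIs, by cell type and mouse, with exact 95% binomial intervals. Paneth cells are at or near 0 in all 3 panels, where granule genes fill most of the thinned UMIs, while Id2 is seen in 41.5% and 40.0% of EEC, where Id1 is seen in 18.9% and 5.00%.

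Within goblet cells Id1 and Id3 were found in the same cells more than in others. Among thinned goblet cells with an Id3 UMI, 56.8% of 155 and 38.5% of 65 also held Id1, against 16.5% of 121 and 12.3% of 73 cells without Id3. In enterocytes the shares were 53.0% of 542 and 46.3% of 231, against 37.9% of 388 and 31.8% of 151. In TA cells they were 62.2% and 48.3%, against 58.1% and 36.7%. Smad1, which was not called between types, showed no such split in goblet cells, with 16.8% and 13.8% of cells with Id3 against 19.0% and 23.3% of those without. Cells of a library share their source, and these shares are a description with no test.

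IEL stand outside the epithelium and were compared with the mean of the 9 epithelial types in a fit of 20 sums. There 5 of 10 genes were called, against 30.0% of 11402 genes. Id2, which lymphocytes of the innate and intraepithelial kind are known to need, was higher by 2.49 (SE 0.18, adjusted p = 3.11e-13), with 86 and 73 UMIs. Id1 had 0 UMIs in both mice. Against a floor of 3 UMIs over the 2 libraries it was at least 21.5-fold lower than in the epithelial cells together, and the fit gave adjusted p = 0.00155. Smad1 was lower by 3.12 (SE 0.57, adjusted p = 4.32e-05, 2 and 1 UMIs). The difference was -1.96 for Bmpr1a (SE 0.53, adjusted p = 0.00422, 3 and 2 UMIs) and -1.21 for Smad4 (SE 0.40, adjusted p = 0.0188, 8 and 4 UMIs). The Smad4 call ended with library totals alone, at -0.74 (adjusted p = 0.182). Bmpr2, at 2 UMIs and 0, was not called (adjusted p = 0.0567). Id3 stood at 38.9 and 86.0 scaled CPM, and its difference of -0.64 (adjusted p = 0.121) became -1.31 without the Paneth sums (adjusted p = 0.000813). Replicate 2, with the higher Id3, is also the IEL sum with B cell markers at 4862 CPM, and the part of those cells was not tested.

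Genes whose profile over the 9 epithelial types was most like that of Bmpr1a, Bambi, Smad1, Smad4, Id1, Id2 or Id3 were sought by Pearson correlation of log2 levels, as the smaller value of the 2 mice, among 4670 genes with a mean of at least 20, a level that Bmpr2, Smad5 and Smad6 did not reach. The points share libraries and depth, and 9 types are few, so the values are a description. Bambi was followed most closely by Wnt3, a ligand made by Paneth cells (r = 0.97 and 0.95), then by Fam46c (0.93 and 0.95) and Ggh (0.90 and 0.92). Id1 was followed by Krt19 (0.98 and 0.93), Fh1 (0.91 and 0.92) and S100a10 (0.91 and 0.94). Id2 was followed by St3gal6 (0.93 and 0.94), Ceacam1 (0.90 and 0.85) and Kin (0.84 and 0.91), and Id3 by Fabp2 (0.90 and 0.91), Tm4sf5 (0.90 and 0.92) and E2f2 (0.88 and 0.94). For Smad4 the nearest was Fdx1 (0.80 and 0.84), for Bmpr1a Fmr1 (0.85 and 0.80) and for Smad1 Efr3a (0.91 and 0.76). Among these 7 Id1 and Id3 were alike at 0.97 and 0.79, and Id1 and Bambi ran opposite at -0.84 and -0.95. Paneth cells, the lowest of the 9 types for Id1, Id2 and Id3 and the highest for Bambi, enter all these values. The correlations were not repeated without them.

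The per-mouse differences had the sign of the fit in both mice for every called value in the comparisons of types, including those that IEL entered. No gene was at least 2-fold higher in the same mouse in 5 or more of the 9 epithelial types. Id1, Bmpr2 and Smad4 were each higher in replicate 1 in 8 types. Id1 differed by 11.1-fold in EEC and 2.49-fold in goblet progenitors, and lay within 1.80-fold elsewhere.

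A list of 55 further genes of BMP and TGF-beta signalling placed the 10 in their pathway. Of these, 34 passed the filter and 29 varied among the epithelial types, against 77.3% of all genes. Among 11 ligands Bmp4 and Bmp5 had 0 UMIs in these cells, as did the antagonists Nog, Grem1, Sostdc1 and Bmper, and the receptor Bmpr1b. Bmp3 was highest in enterocytes at 24.1 and 35.2 CPM and rose by 1.25 from stem cells (SE 0.29, adjusted p = 0.000661), whereas it fell by 2.77 from goblet progenitors to goblet cells (SE 0.48, adjusted p = 5.33e-05). Bmp7 fell by 3.73 from stem cells to enterocytes (SE 0.45, adjusted p = 4.03e-08).

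Among the antagonists Smoc2, a secreted BMP inhibitor and stem cell marker, fell by 3.80 from stem cells to enterocytes (SE 0.25, adjusted p = 7.41e-13) and was higher in stem cells than in TA cells by 1.10 (SE 0.22, adjusted p = 0.00153). Rgmb, a BMP co-receptor, fell by 2.72 (SE 0.30, adjusted p = 6.09e-09) and was higher in stem cells than in TA cells by 1.25 (SE 0.27, adjusted p = 0.003). Of 8 further Smads and regulators of their turnover, 7 were tested, of which 6 rose from stem cells to enterocytes and 0 fell, against 51.3% of all genes called in either direction. They include Smad7, the other inhibitory Smad, which rose by 1.19 (SE 0.26, adjusted p = 0.000347), Skil by 1.93 (SE 0.28, adjusted p = 1.32e-06) and Tob1, an antiproliferative Smad partner, by 2.31 (SE 0.23, adjusted p = 8.47e-10). Skil and Tob1 also rose from goblet progenitors to goblet cells, by 1.29 and 1.39 (adjusted p = 0.0003 and 6.74e-06).

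Among other targets Id4 was highest in the goblet branch, at 44.9 and 53.6 CPM in goblet cells and 16.6 and 27.6 in goblet progenitors, with 10.9 and 40.2 in secretory progenitors and 0 UMIs in enterocytes, EEC and stem cells of both mice. It rose by 1.72 from goblet progenitors to goblet cells (SE 0.29, adjusted p = 7.68e-05). Hes1, also on the list of targets, fell by 1.45 from stem cells to enterocytes and by 1.12 from goblet progenitors to goblet cells (adjusted p = 4.23e-06 and 0.0016). Whether BMP signals set its level in these cells was not tested. Of the 3 E proteins that Id proteins bind, 2 fell from goblet progenitors to goblet cells, against 29.1% of all genes called. Tcf3 fell by 0.88 (SE 0.21, adjusted p = 0.00204) and Tcf4 by 0.87 (SE 0.29, adjusted p = 0.0221), while Tcf12 changed by -0.02 (adjusted p = 0.969). From stem cells to enterocytes Tcf3 fell by 0.79 (adjusted p = 0.00109) and Tcf4 by 0.65 (adjusted p = 0.0413).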

How the data were processed

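Jejunal crypt cells of 2 knockout mice were profiled on the 10x Genomics platform. Per the labels and methods, the authors aligned reads to mm10 with Cell Ranger 3.0.1, removed free RNA with SoupX, discarded doublets found by scDblFinder (no further doublet filter was applied), kept cells with at least 1500 genes and at most 25% mitochondrial reads, and named clusters in Seurat. The deposited matrices hold UMI counts per gene and barcode. Whether free RNA had been removed from them is not stated and was not tested. Lyz1 and Defa24 together had 0 UMIs in TA cells and enterocytes of replicate 2, and 117 and 360 in those of replicate 1. The deposited cell annotation, which gives the mitochondrial percent of each cell, was joined to them by barcode. UMI totals of the annotation and of the matrices differed by at most 1.27% in a cell. The sctransform scores and doublet calls that the authors deposited were not used, nor were 2937 cell columns per table from another series.

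UMIs were summed per type and mouse and tested in edgeR 4.0.16 by robust quasi-likelihood F tests (R 4.3.3, filterByExpr, TMM), with type and mouse as terms, since each mouse gave every type. Tests were two-sided and adjusted by Benjamini-Hochberg within each comparison over all genes, with 8 residual degrees of freedom. SE is the log2 difference over the square root of F, and intervals are 1.96 SE. Values within a mouse carry no test (prior count 2). The pipeline was tested on simulated data. The 10 genes, the gene lists and the tests were chosen with earlier results of these data known. Named further genes had passed the F test and reached at least 20 scaled CPM (counts per 1000000) in a type in both mice, and genes at 0 were named besides. Nbl1 and others that varied below that level were left out. Likeness used log2 of the level plus 1. Alternatives were library totals, size factors and the test of DESeq2 1.42.0, no filter, no mouse term, a stricter cell filter (2000 genes, 10% mitochondrial), thinning to 5000 UMIs, Paneth sums left out and each mouse alone. Adjustment over the 9 type comparisons together was added after seeing the data.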

Additional observations from a re-analysis of the deposited data

How the results depend on the processing

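The cause of each change below was not tested. Each mouse gave every type, so the mouse is the pairing. With no replicate block the genes called among the 10 were 1 for enterocytes against stem cells (3 with it), 1 for goblet cells against goblet progenitors (4) and 16 over the 9 type comparisons (27), and over all genes 3309, 1044 and 13149 (5650, 3208 and 24623), with 70 for stem against TA cells (532). Thinning to 5000 UMIs left 2 of the 10 in the goblet comparison, and 3762, 349, 1636, 1359 and 14550 of all genes for enterocytes, stem against TA cells, goblet cells, IEL (3418 unthinned) and the 9 types. Without the filter on low counts stem and TA cells differed in 1 of the 10 and 834 of all genes. The stricter cell filter, which left 6 IEL in replicate 1 and dropped that sum, called 3 of the 10 in IEL (5). It left 148 of 931 enterocytes and 59 of 139 stem cells in replicate 1, and 307 of 382 and 105 of 117 in replicate 2. The median mitochondrial percent of the annotated cells was 10.2 in replicate 1 and 5.55 in replicate 2. Library totals alone called 50 of the 10 genes' 90 values and 44437 over all genes.

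Among the called values and the uncalled ones described above, the directions that turned were these; other uncalled values were not compared. For enterocytes against stem cells library totals gave Bmpr1a -0.0113, Smad1 -0.14, Id1 -0.19 and Id2 -0.0917, and the stricter cell filter Smad1 -0.0868 and Id2 -0.14. Without Paneth sums Id3 was -0.10 in EEC and -0.0182 in stem cells. In Paneth cells library totals gave Bmpr2 -2.68 and Smad5 -2.40, the stricter filter Bmpr2 -0.61 and Smad6 0.00500, and thinning Smad5 -0.86. Library totals gave Id3 0.0888 in secretory progenitors, and Smad5 0.00922 and Id2 0.24 in TA cells. Thinning gave Id2 0.47 in enterocytes and 0.41 in TA cells, and Bambi -0.82 in goblet cells.

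With the size factors of DESeq2 67 of 67 single values kept their direction and side of the threshold, and with its test 65 of 67. With 1 mouse left out there was no test, and 29 of 60 values without replicate 1 and 18 of 60 without replicate 2 moved by more than the SD of the mice. Calls that ended under thinning or the stricter filter include those of Bambi in secretory progenitors (adjusted p = 0.0619, thinned), Bambi in enterocytes against stem cells (0.0517, stricter), Id2 in goblet cells against progenitors (0.0533, thinned), Id1 in IEL (0.0543, stricter) and Smad4 in enterocytes (0.407, stricter). The few UMIs of Bmpr2, Smad6 and the IEL sums limit their values.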
